A study of Mus musculus with 5 samples.

Results

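The microRNAs (miRNAs) described here are the mouse families miR-297, miR-466, miR-467 and miR-669, many of whose genes lie inside the gene Sfmbt2. Every probe whose name begins with one of these 4 numbers was taken, whatever its letter or arm, which gave 71 of the 1900 miRNAs on the array. Family miR-297 has 4 of these members, miR-466 has 27, miR-467 has 13 and miR-669 has 27. All samples were total RNA of back skin from female mice. The aged group was 2-year-old mice, with unwounded skin (day 0, D0) and wounded skin at days 3, 5 and 7 (D3, D5 and D7) after a full-thickness 3 mm punch wound made at the telogen, or resting, stage of the hair cycle. The young group was unwounded skin of 8-week-old mice. Wounds of young mice were not analysed here. Each of the 5 conditions was measured on 1 single-colour array, and neither the labels nor the methods say how many mice gave the RNA. With no replicate, no difference could be tested, no p-value is given, and every value below describes these 5 arrays. In RNA of whole skin, fewer cells of a type and less RNA per cell cannot be told apart.

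A miRNA is cut from a hairpin precursor, whose strands give a 5p and a 3p product. The bases near its 5′ end, called the seed, pair with target messenger RNAs and largely decide which ones are repressed. Sfmbt2 encodes a Polycomb-group protein and is imprinted in the mouse, where the paternal copy is expressed, most of all in extraembryonic tissues such as the placenta. One of its introns holds a rodent-specific run of many similar miRNA hairpins, which is among the largest miRNA clusters of the mouse genome. These hairpins grew from simple repeats, so that their 3p arms are often runs of CA and their 5p arms runs of UG.

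The sequences below, in the 5′ to 3′ direction and as the array files give them, come from the 4 hairpins for which both arms were well above background. They are shown because the arms of a hairpin are compared further on. Capitals mark the seed, bases 2 to 8.
miR-466i-5p: uGUGUGUGugugugugugug
miR-466i-3p: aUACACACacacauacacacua
miR-466m-5p: uGUGUGCAugugcauguguguau
miR-466m-3p: uACAUACAcacauacacacgca
miR-669c-5p: aUAGUUGUguguggaugugugu
miR-669c-3p: uACACACAcacacacaaguaaa
miR-669f-5p: aGUUGUGUgugcaugugcaugugu
miR-669f-3p: cAUAUACAuacacacacacguau
Each 5p arm is rich in UG and each 3p arm rich in CA, and no seed is shared among these 8.

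Near-identical members are shown next, because a probe for one can also catch another. Capitals again mark the seed.
miR-467b-3p: aUAUACAUacacacaccaacac
miR-467d-3p: aUAUACAUacacacaccuacac
miR-467c-3p: aUAUACAUacacacaccuauac
miR-467e-3p: aUAUACAUacacacaccuauau
miR-669a-3p: aCAUAACAuacacacacacguau
miR-669a-3-3p: aCAUAACAuacacacacauguau
Counting positions from the 5′ end, miR-467b-3p becomes miR-467d-3p by A18U, miR-467d-3p becomes miR-467c-3p by C20U, and miR-467c-3p becomes miR-467e-3p by C22U. The substitution that separates miR-669a-3p from miR-669a-3-3p is C19U. Among the 2485 pairs of members, 15 differed by 1 base change, insertion or loss, and these pairs took in 24 members. Levels of such members are therefore uncertain as levels of one miRNA. Over all 71 members there were 42 distinct seeds, of which 15 were shared by 2 or more members and covered 44 of them. The seed UAUACAU of the miR-467 sequences above was the most common, with 7 members.

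Most of the members lay near background. A miRNA was taken as detected where its intensity exceeded the level of the array, set at the 95th percentile of its 4 empty spots, and as well above background, or bright, when intensity divided by that level averaged more than 2 across the 5 arrays. By this rule 19 members (26.8%) were bright, against 312 of all 1900 miRNAs (16.4%), and all 19 were detected on all 5 arrays. They were 8 members of miR-466, 3 of miR-467, 8 of miR-669 and 0 of miR-297. On their own, 11 of them exceeded 2 times the level on every array. The bright set held 11 of the 29 members named as 3p arms, 4 of the 30 named as 5p arms and 4 of the 12 with no arm in the name. Seen by base content, 14 of 34 CA-rich members and 5 of 37 UG-rich members were bright.

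Brightness went along with a sequence feature that the choice of members did not use. A run of at least 4 UG, GU, CA or AC units (UGUGUGUG, GUGUGUGU, CACACACA or ACACACAC; the forms overlap) was present in 36 members, and 17 of these (47.2%) were bright. Without such a run there were 35 members, of which 2 (5.71%) were bright, both arms of miR-466m, each with a run of 7 bases. The run was found in 50.7% of members, in 2.32% of all 1900 miRNAs and in 0.437% of the 1829 miRNAs outside the 4 families. The GC content of bright members ranged from 33.3% to 57.9% with a median of 40.0%, against a median of 50% over all bright miRNAs. Signal on an array also depends on how firmly a probe binds, so a bright probe is not a measure of more molecules than a dim one.

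Not every member belongs to the Sfmbt2 locus. In the RefSeq gene table of the GRCm38.p6 assembly, 71 of 81 genes of these families lie within Sfmbt2 on chromosome 2. By name, 55 members had all their genes there and 13 of these were bright. A further 9 members had all their genes elsewhere, of which 5 were bright, namely miR-466i-3p and miR-466i-5p on chromosome 13, miR-467f on chromosome 11, and miR-669n and miR-466q on chromosome 3. Genes both inside and outside were listed for 5 members, of which miR-466f-3p (chromosomes 2 and 13) was bright. The remaining 2, both arms of miR-466a, were not matched by name. The array files name no genome build, so no coordinates are given. RefSeq mature sequences were at hand for 8 members and all 8 were identical to the array's target.

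The arrays differed in background, and the choice of scaling matters for the values that follow. Here and below, 5 values in a row are in the order aged D0, aged D3, aged D5, aged D7 and young D0. The detection levels were 105, 58.3, 61.1, 99.0 and 107, and 589 to 1768 of the 1900 miRNAs were detected. The 5 epithelial miRNAs, among them miR-203-3p and miR-205-5p, were detected on all 5 arrays, and summed to 36338, 15317, 17450, 25625 and 36214. The 5 leukocyte miRNAs summed to 901 at aged D0, where miR-142a-3p was not detected, and to 2389 to 5829 on the other arrays, where all 5 were detected. The 4 skeletal muscle miRNAs were detected on every array and summed to 32805, 6780, 7225, 15455 and 64973. Of the erythroid list 3 miRNAs were on the array and 2 or 3 of them were detected on each array, with sums of 2034, 982, 1284, 1178 and 2496. The epithelial, muscle and erythroid sums were all lower in D3 wounds than in D0 skin and higher in D5 than in D3 wounds, as scanned. The leukocyte sum went the other way, from 901 at aged D0 to 4071 at D3 and 2389 at D5. Not every miRNA followed the sum of its list. The epithelial miR-200c-3p read 2266, 4406 and 1210 at aged D0, D3 and D5, and the muscle miR-1a-3p fell from 1480 at D3 to 850 at D5. The part of cell composition in the results on the members was not tested. Ratios below are between quantile-normalized arrays and intensities are as scanned, so that a ratio need not equal the quotient of the intensities.

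Over the wound course of aged skin, each bright member had a higher level at D5 than at D3, whichever scaling was used. Among the aged arrays the scanned intensity was lowest at D3 for all bright members other than miR-467f and miR-669c-3p, which were lowest at D0. Across the 19, scanned intensities ranged from 163 to 2027 in aged D0 skin (median 281), from 105 to 1634 in D3 wounds (median 233), from 181 to 1683 in D5 wounds (median 329) and from 216 to 2101 in D7 wounds (median 383). In young D0 they ranged from 221 to 2831 (median 493). The counts above 2 times the detection level were 11, 18, 19, 19 and 19 of 19 in that order of arrays. That level itself differed between arrays, so the counts do not follow the members' signal alone. It was 105 at aged D0, where the median miRNA spot read 97.4, and 58.3 at aged D3, where that spot read 68.5. Much of each range of intensities comes from a single member, miR-466i-5p, a pure UG repeat.

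**Figure D1:**
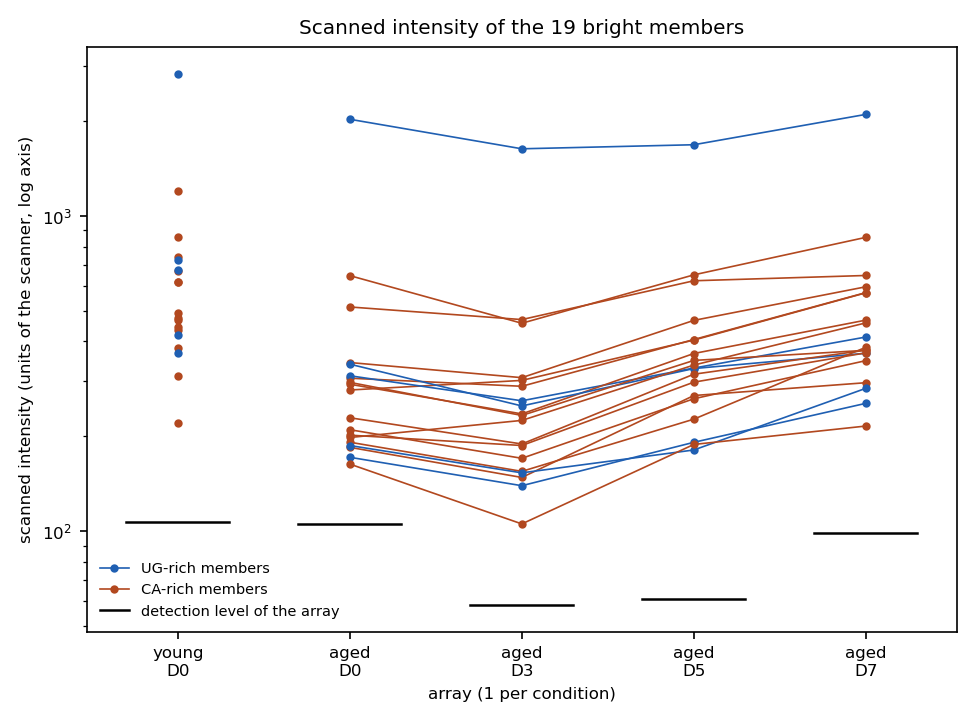
Scanned intensity in units of the scanner (log axis) of the 19 bright members on the 5 arrays, 1 point for each member and array, with lines joining the aged arrays, CA-rich members in red-brown, UG-rich members in blue, and a black bar at the detection level of each array. miR-466i-5p stands above the other members on every array, from 1634 at D3 to 2831 in young D0, and all 19 members lie above the detection level throughout.

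With quantile normalization the members were lower in D3 wounds than in unwounded aged skin. The median D3/D0 ratio was 0.795 (log2 -0.33; range 0.610 to 1.08), with 18 of 19 members below 1 and 1 above it, whereas scaling to the probe median (the median over all miRNA probes) put it above 1 (log2 0.19). Of all 312 bright miRNAs 58.7% were below 1 and 40.7% above it. No member reached 2-fold in either direction, against 17.6% of bright miRNAs that were higher and 14.7% that were lower by this much. At 1.5-fold, 3 members were lower and 0 higher, against 28.2% and 25.3% of bright miRNAs. The other 293 bright miRNAs had a median of 0.885, so that members lay 0.15 below them on the log2 scale, and this distance ranged from 0.14 to 0.49 below over the 10 ways of processing tried. The 185 of them within the bright members' range of GC content had a median of 0.792, like that of the members, with 31.4% above 1. For the 36 with a GC content up to the members' median it was 0.860. Those with a signal between the dimmest and the second brightest bright member, 154 miRNAs, had a median of 0.933.

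In D5 wounds, by the same normalization, the members were higher than in unwounded aged skin. The median D5/D0 ratio was 1.35 (log2 0.43; range 0.945 to 1.87), with 18 of 19 members above 1, although scaling to the spike controls gave a median below 1 (log2 -0.11). A ratio above 1 was found for 50.6% of all bright miRNAs and one below 1 for 48.4%. No member reached 2-fold, against 9.29% of bright miRNAs higher and 8.33% lower. At 1.5-fold 4 members were higher (miR-669c-3p, miR-669f-3p, miR-466q and miR-467f) and 0 lower, where the background was 22.1% in each direction. The members' median exceeded that of the other bright miRNAs, 0.973, by 0.47 on the log2 scale, which is 1.39-fold. Over the ways of processing this excess ranged from 0.42 to 0.59, with 18 or 19 of the 19 members above the others' median each time.

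Between the wounds themselves the members differed most evenly. The D5/D3 ratio, which does not use the D0 array, had a median of 1.79 (log2 0.84; range 1.34 to 2.11), and 19 of 19 members were above 1 in every way of processing tried. Of all bright miRNAs 56.1% were above 1 and 43.3% below. At least 1.5-fold higher were 16 members, against 26.3% of bright miRNAs, and at least 2-fold higher were 2 members, miR-669f-3p (2.11) and miR-669e-3p (2.07), against 6.73%. None was lower by 1.5-fold or 2-fold, where the background was 22.1% and 8.65%. The other bright miRNAs had a median of 1.08. Members were thus 0.74 higher on the log2 scale, 1.66-fold, with a range of 0.63 to 1.05 over the ways of processing. Repeat spots of one array describe the array only: the SD of a log2 D5/D3 ratio from the 2 spots of a probe was 0.10 for bright members and 0.13 for all bright miRNAs.

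Some cell type markers had D5/D3 ratios of the same size. Ratios above 1 were found for 4 of 5 epithelial miRNAs (range 0.371 to 3.22; miR-205-5p 1.95), 3 of 4 muscle miRNAs (range 0.671 to 2.67; miR-206-3p 2.67) and 2 of 5 leukocyte miRNAs (range 0.536 to 1.99). Of the erythroid miRNAs, miR-451a had a ratio of 1.54 and miR-486a-5p one of 1.90, while miR-144-3p was detected on 1 array. Their part in the members' D5/D3 ratios was not tested.

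Other bright miRNAs of like signal or base content had lower D5/D3 medians. Those with a signal between the dimmest and the second brightest bright member numbered 154 and had a median D5/D3 ratio of 0.974, with 47.4% above 1. Those within the members' range of GC content numbered 185 and had a median of 1.14, with 63.2% above 1, and the 36 with a GC content up to the members' median had a median of 0.948.

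At D7 the members' level against unwounded skin depended on the scaling. The median D7/D0 ratio was 1.02 (log2 0.02; range 0.636 to 1.53), with 10 members above and 9 below 1. Over the 11 members above 2 times the detection level on every array, the median was 0.821, with 4 above and 7 below 1. The aged D0 array alone decided which members these were. As it is also the denominator, such a choice favours lower ratios, and no result is drawn from it. Over all 19 the median was below 1 when arrays were scaled to the 75th percentile of detected miRNAs (log2 -0.11). It was further above 1 without normalization (log2 0.59), with the probe median (log2 0.66) and with the spike controls (log2 0.61). Among all bright miRNAs 46.8% were above 1 and 52.6% below. No member passed 2-fold, against 10.6% higher and 8.01% lower, and at 1.5-fold 1 member was higher and 1 lower, against 19.9% and 19.6%. These were the arms of one hairpin, miR-669c-3p and miR-669c-5p. The distance from the other bright miRNAs, 0.08 on the log2 scale, ranged from 0.02 to 0.24. Repeat spots were also widest apart here, with an SD of 0.14 for bright members and 0.24 for all bright miRNAs on the log2 scale. The D3/D0, D5/D0 and D7/D0 ratios all divide by the same D0 array, so they are not independent of each other.

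**Figure D2:**
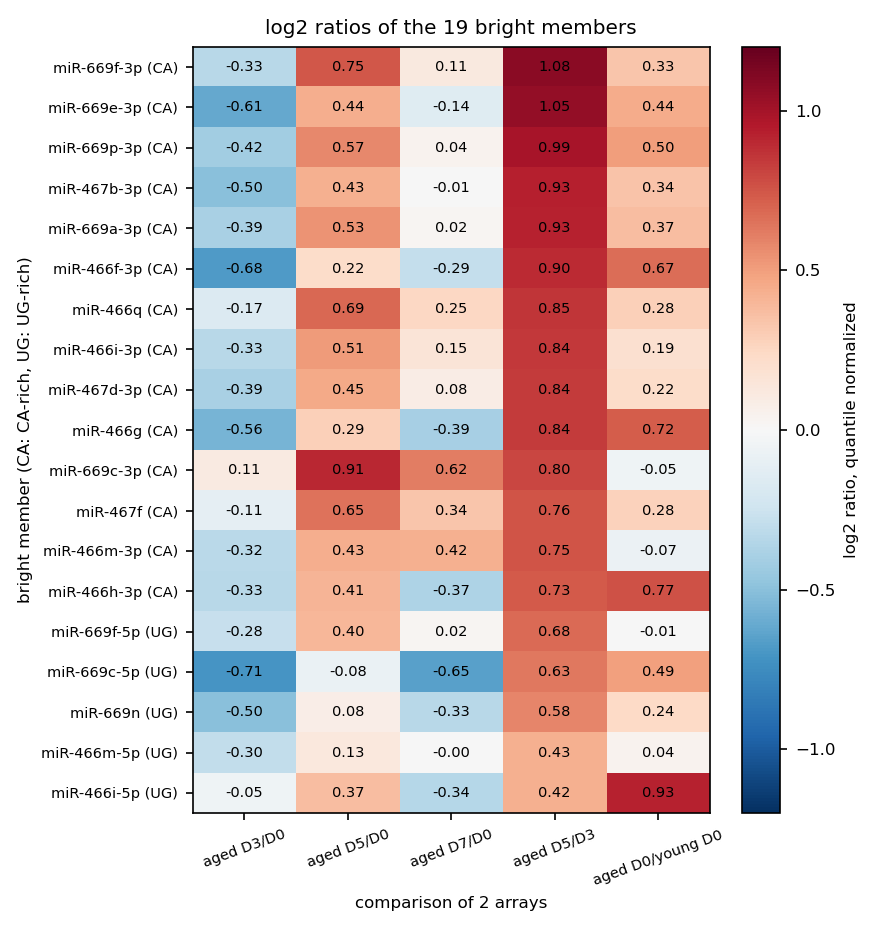
Heat map of the log2 ratios, after quantile normalization, of the 19 bright members (rows, ordered by D5/D3) in 5 comparisons (columns), with red above and blue below 0. The D5/D3 column is above 0 for every member, from 0.42 in miR-466i-5p to 1.08 in miR-669f-3p, and the UG-rich members fill its lowest places.

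The strongest signal came from the 5p arm miR-466i-5p, which read 2027, 1634, 1683, 2101 and 2831. Its D3/D0, D5/D0 and D7/D0 ratios were 0.967, 1.30 and 0.790, and its 2 spots disagreed on the direction of the last (0.578 and 1.08). Its D5/D3 ratio, 1.34, was the lowest of the bright members together with that of miR-466m-5p, also 1.34.

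In family miR-466, miR-466f-3p read 647, 457, 651, 856 and 1199. Its D3/D0 ratio of 0.626 was among the lowest, and its D5/D3 ratio was 1.87. Rich in CA, with a run of 11 bases and 57.9% GC, miR-466h-3p read 515, 469, 623, 648 and 859. It had a D3/D0 ratio of 0.796 and a D5/D0 ratio of 1.32. Both members were at their lowest scanned signal at D3.

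The miR-466i-3p arm read 306, 288, 406, 572 and 739, with a D5/D0 ratio of 1.43 and a D5/D3 ratio of 1.79. The CA-rich miR-466g read 296.7, 233, 348, 375 and 469, with ratios of 0.680 for D3/D0 and 1.22 for D5/D0. Genes of the former lie outside Sfmbt2 and genes of the latter inside it, and the D5/D3 ratio of miR-466g was likewise 1.79.

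Family miR-467 had 3 bright members. The first, miR-467f, read 281, 301, 404, 571 and 616, and its D5/D0 ratio was 1.57. Values of miR-467b-3p were 292.7, 236, 366, 467.5 and 619, with ratios of 0.705 for D3/D0 and 1.34 for D5/D0. Those of miR-467d-3p, 1 base away and of the same seed, were 210, 170, 263, 348 and 434, with ratios of 0.762 and 1.37. The next sequence of that series, miR-467c-3p, was near background at 107, 80.9, 108, 169 and 166, as was miR-467e-3p at 84.4, 69.5, 84.3, 152 and 127. Thus the series printed above holds bright and dim probes that differ by 1 base outside the seed.

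In family miR-669, miR-669p-3p read 343, 307, 466.6, 596 and 671, with a D5/D0 ratio of 1.49 and a D5/D3 ratio of 1.99. The probe miR-669a-3p read 229, 189, 315, 375 and 444, with ratios of 1.45 and 1.90, while miR-669a-3-3p, 1 base away, stayed near background at 113, 76.1, 124, 152 and 145. The UG-rich miR-669n read 311, 259, 329, 413 and 724. Its D5/D0 ratio, 1.06, was the second lowest of the bright members, and its D5/D3 ratio was 1.5.

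Among the bright members are 5 that the study itself placed on its list of age-dependent miRNAs. That list set the aged wounds, read on these same arrays, against wounds of young mice, which were not analysed here. The values of the 5 members are thus no independent evidence of a direction. Of these, miR-669f-3p read 185, 148, 269, 296 and 310, with a D5/D0 ratio of 1.68, and its 2 spots gave D5/D3 ratios of 2.28 and 1.96. The dimmest bright member, miR-669e-3p, read 163, 105, 189, 216 and 221, with ratios of 0.654 for D3/D0 and 1.36 for D5/D0. The other three were miR-466i-3p and miR-467d-3p, given above, and miR-466m-3p, which read 192, 155, 227, 383 and 473 with ratios of 0.801 and 1.35. With quantile normalization all 5 were lower at D3 and higher at D5 than at D0, though over all bright members the median turned at D3 with the probe median and at D5 with the spike controls.

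A different course was seen for one member. Highest of all in D5/D0 was miR-669c-3p, which read 198, 225, 337, 458 and 493, with a D3/D0 ratio of 1.08, a D5/D0 ratio of 1.87 and a D7/D0 ratio of 1.53. It was the single bright member above 1 at D3 after quantile normalization. Values of miR-466q were 202, 187, 297.1, 368 and 382, with a D5/D0 ratio of 1.61.

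Split by sequence, the CA-rich members had the larger median D5/D3 ratio. The 14 CA-rich bright members had a median of 1.80 (range 1.66 to 2.11) and the 5 UG-rich ones a median of 1.5 (range 1.34 to 1.60). After quantile normalization the 2 groups did not overlap in the means of repeat spots, but with other processing they did. Over the 9 alternatives, the lowest D5/D3 ratio was 1.39 for the UG-rich miR-669f-5p. It was 1.31 for the CA-rich miR-466h-3p and 1.33 for the CA-rich miR-467f. Single spots overlapped after quantile normalization too. In the first spot alone, the UG-rich miR-669f-5p had 1.81 and miR-669c-5p 1.69, and the CA-rich miR-467f had 1.55 and miR-466h-3p 1.62. For D5/D0 the medians were 1.40 and 1.09, and for D7/D0 they were 1.05 and 0.796. At D3/D0 they were close, 0.778 and 0.812. Outside the 4 families, 8 miRNAs carry the repeat and 5 of these were bright, all UG-rich. Their median D5/D3 ratio was 1.54 (range 1.44 to 1.82), close to that of the UG-rich members, and the D3/D0, D5/D0 and D7/D0 medians were 0.766, 1.38 and 0.749. Of these, miR-574-5p and miR-1187 hold long runs, shown here with the run in capitals for comparison with miR-466i-5p.
miR-574-5p: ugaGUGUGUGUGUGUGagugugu
miR-1187: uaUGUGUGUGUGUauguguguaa
The former read 403, 358, 507, 489 and 868 with a D5/D3 ratio of 1.82, and the latter 158, 159, 215, 312 and 399 with a ratio of 1.54. Higher D5/D3 values were therefore also present in repeat-bearing miRNAs outside these families. Whether probes for such repeats also catch other repeat-bearing RNA was not tested.

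Members inside and outside Sfmbt2 had overlapping ratios. The 13 bright members with all genes inside had D3/D0, D5/D0, D7/D0 and D5/D3 medians of 0.762, 1.35, 1.02 and 1.79, and the 5 outside had 0.892, 1.43, 1.11 and 1.69. By family, the D5/D3 medians were 1.74 for miR-466, 1.79 for miR-467 and 1.82 for miR-669, and the D5/D0 medians were 1.31, 1.37 and 1.40.

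**Figure D3:**
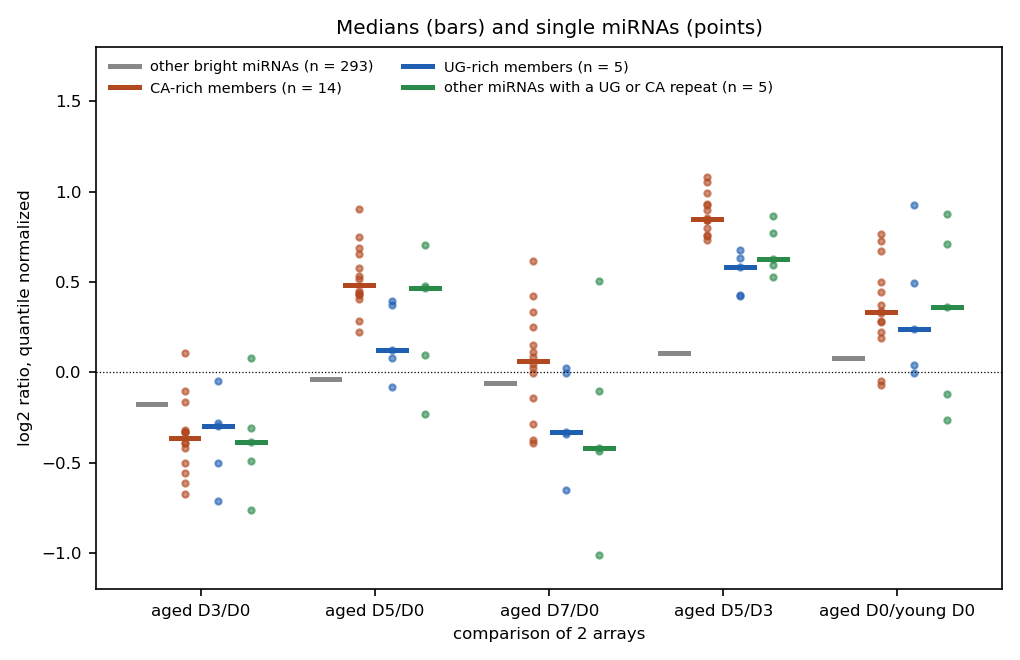
Log2 ratios after quantile normalization in 5 comparisons, with a bar at the median of the other bright miRNAs (n = 293), the CA-rich members (n = 14), the UG-rich members (n = 5) and the bright repeat-bearing miRNAs outside the families (n = 5), and 1 point for each miRNA except in the first group. In D5/D3 every CA-rich member lies above every UG-rich member in the means of repeat spots drawn here, though not in single spots or in every way of processing. The bars of the 3 smaller groups lie above that of the 293 miRNAs.

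The arms of a hairpin come from one precursor, and their ratios did not match. In the 4 hairpins printed above the 3p arm had the higher ratio in 4 of 4 for D5/D0 (median 1.26-fold over the 5p arm), for D7/D0 (1.38-fold) and for D5/D3 (1.29-fold). In D3/D0 this held for 1 of 4 hairpins and in aged over young skin for 1 of 4 (0.798-fold). The 5p arms here are UG-rich and the 3p arms CA-rich, so the arms reuse members of the split by sequence given above. After quantile normalization the D5/D3 count of 4 of 4 followed from that split and adds nothing to it. Since both arms are read on the same arrays, a scaling factor cancels from the comparison. Quantile normalization, used for these values, is no such factor. The median D5/D0 gap was log2 0.33 with it and log2 0.53 without normalization or with each scaling. For D3/D0 the count depended on the processing, as the gap of miR-466i was above 0 in 4 of the 9 alternatives (log2 -0.43 to 0.23). The 3p arm had the higher D5/D0, D7/D0 and D5/D3 ratio in all 4 hairpins under each of the 9 alternatives.

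The largest gap was in miR-669c. Its 5p arm read 339, 250, 328, 367 and 675, and its 3p arm, as above, 198, 225, 337, 458 and 493. On the aged D0 array, the denominator of the ratios to D0, the 3p arm was 1.88 times the detection level and the 5p arm 3.21 times. The scanned signal of the 3p arm was thus above its own D0 value on all 3 wound arrays, and that of the 5p arm on the D7 array alone. The D5/D0 ratios were 1.87 for the 3p arm and 0.945 for the 5p arm, 1.98-fold apart (log2 0.99), with 0.98 and 0.99 from the separate spots and 0.79 to 1.14 over the alternatives. At D7/D0 they were 1.53 and 0.636, 2.41-fold apart (log2 1.27; spots 1.24 and 1.30; alternatives 1.11 to 1.58). Already at D3/D0 they were 1.76-fold apart.

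The other hairpins had smaller gaps. On the aged D0 array both arms of miR-466m (3p 1.82, 5p 1.77) and of miR-669f (3p 1.75, 5p 1.63) were below 2 times the detection level. In miR-466i the 3p arm exceeded the 5p arm 1.10-fold in D5/D0 (log2 0.14; alternatives 0.10 to 0.70) and 1.41-fold in D7/D0 (log2 0.49; alternatives 0.47 to 0.82). In miR-466m the 5p arm read 187, 153, 181, 284 and 419, and the gaps were 1.24-fold and 1.35-fold. In miR-669f the 5p arm read 172, 139, 191, 255 and 368, and the gaps were 1.28-fold in D5/D0 and 1.06-fold in D7/D0, where the 2 spots gave log2 differences of -0.01 and 0.18. The last gap was therefore within the spread of the spots.

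**Figure D4:**
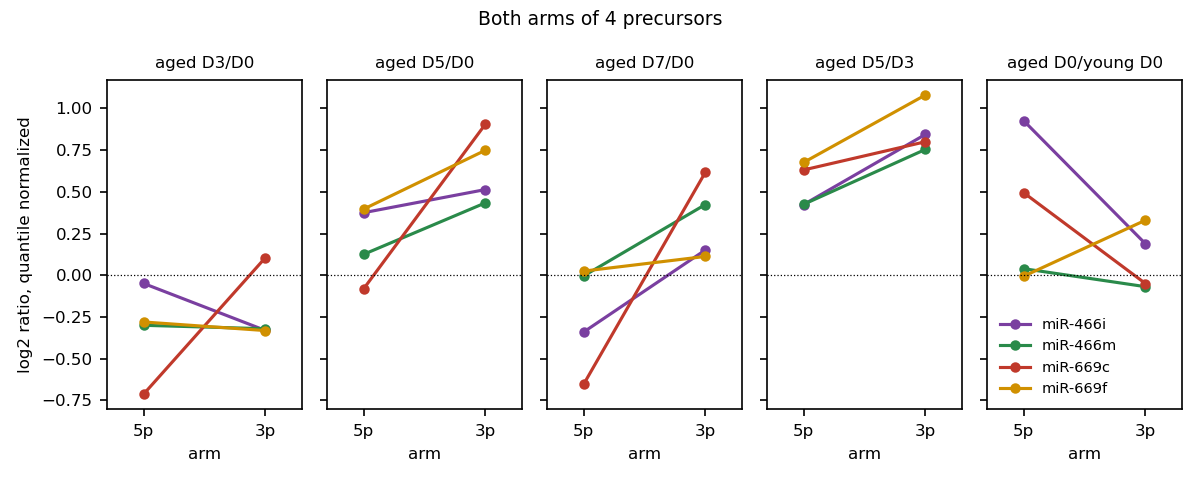
Log2 ratios after quantile normalization of the 5p arm (left of each panel) and the 3p arm (right) of the 4 hairpins with both arms bright, joined by a line for each hairpin, in 5 comparisons. The lines go up in all 4 hairpins for D5/D0, D7/D0 and D5/D3, most steeply for miR-669c in D7/D0, from -0.65 to 0.62.

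Unwounded aged skin was set against unwounded young skin to compare the ages without a wound. After quantile normalization the median aged/young ratio of bright members was 1.26 (log2 0.33; range 0.954 to 1.90), with 16 of 19 above 1, but it was below 1 with no normalization (log2 -0.98), with scaling to the probe median (log2 -1.13) and with scaling to the spike controls (log2 -0.66). All 19 scanned intensities were lower on the aged than on the young array, and the direction of an age difference is thus not settled by these arrays. Of all bright miRNAs 57.4% were above 1 and 42.6% below. No member reached 2-fold, against 5.13% of bright miRNAs higher and 11.2% lower, and at 1.5-fold 4 members were higher and 0 lower, against 16.3% and 18.9%. The 4 were miR-466i-5p (1.90), miR-466h-3p (1.70), miR-466g (1.65) and miR-466f-3p (1.59), all of family miR-466. This ranking depended on the processing: with scaling to the 75th percentile of detected miRNAs, miR-669e-3p was highest (2.56). Lowest after quantile normalization were miR-466m-3p at 0.954 and miR-669c-3p at 0.966. Relative to the other bright miRNAs, whose median was 1.05, members lay 0.25 higher on the log2 scale, with a range of 0.13 to 0.37 over the ways of processing. These ratios share the aged D0 array with those of the wound course.

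The 52 members near background allow few statements. The numbers detected were 12, 51, 32, 45 and 21, and the arrays fall in the same order by the number of all miRNAs detected. On all 5 arrays 11 were detected, and 1, miR-466l-5p, on none. Intensities ranged from 76.4 to 133 in aged D0 skin, from 57.8 to 97.4 in D3 wounds, from 53.3 to 136 in D5 wounds, from 93.0 to 203 in D7 wounds and from 67.7 to 268 in young skin. Of the miR-297 family, miR-297a-3p read 79.3, 67.2, 68.6, 137 and 110, miR-297a-5p 84.2, 76.7, 63.6, 125 and 93.4, and miR-297b-5p 96.9, 63.4, 56.6, 116 and 90.8. The highest of them came close to the bright set: miR-467a-3p read 132, 97.4, 136, 203 and 226, and miR-466c-5p read 119, 97.1, 130, 195 and 268. Ratios of near-background members were not formed one by one, and a signal near background does not show that a miRNA is absent from skin.

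**Figure D5:**
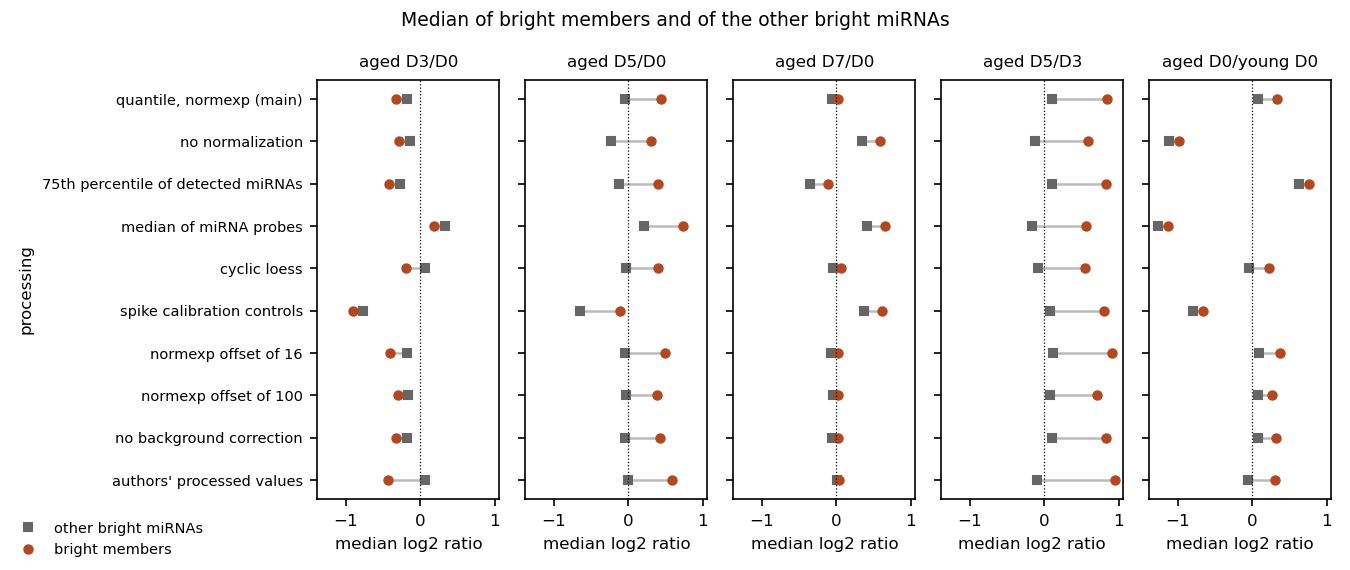
Median log2 ratio of the bright members (circles) and of the other bright miRNAs (squares) in 5 comparisons (panels) under 10 ways of processing (rows), joined by a line. Both medians shift with the scaling, most in aged over young skin, while the distance between them stays above 0 in D5/D0 (0.42 to 0.59) and D5/D3 (0.63 to 1.05) and below 0 in D3/D0 (-0.49 to -0.14).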

How the data were processed

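The authors deposited scanner files with a linear intensity per spot and empty background columns, and a table of processed intensity per miRNA whose normalization is not given in the sources used here. RNA was isolated with Direct-zol and hybridized by a service provider. From the scanned values all spots were corrected with limma's normexp method (offset 50) fitted on intensity alone, since no background was given, controls were dropped, log2 values of the 5 arrays were quantile normalized, and repeat spots (2 per miRNA) were averaged. Thresholds were 2-fold and 1.5-fold. The number of arrays limits the precision. Members and lists were chosen with earlier results of these data known. Values were named for members bright on all arrays, the 3 brightest of each family, those on the study's list, and the 2 highest and 2 lowest of each comparison; the remaining bright members and 5 dim members were named after their values were seen. Alternatives were cyclic loess, no normalization, scaling to the probe median, 11 spike controls or the 75th percentile of detected miRNAs, offsets of 16 and 100, no correction, the authors' processed values (below 1 set to 1), a brightness limit of 3, no filter and members inside Sfmbt2 alone; the last, the differences from other miRNAs, the arms and the D5/D3 alternatives were added after seeing the data. Scripts were checked on simulated data. Python 3.11.15 (pandas 2.3.3, numpy 2.4.6) and R 4.3.3 (limma 3.58.1) were used, and figures were drawn in matplotlib 3.10.9.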

Additional observations from a re-analysis of the deposited data

How the results depend on the processing

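Median log2 ratios of bright members depended on the scaling, and the cause was not tested. For D3/D0 the median was 0.19 with scaling to the probe median, -0.91 with the spike controls and -0.066 over all members with no filter. For D5/D0 it was 0.74 with the probe median, -0.11 with the spike controls, 0.59 with the authors' values and 0.16 with no filter. For D7/D0 it was 0.59 without normalization, 0.66 with the probe median and 0.61 with the spike controls. For aged over young skin it was -0.98 without normalization, 0.77 with the 75th percentile, -1.13 with the probe median, -0.66 with the spike controls and 0.0044 with no filter, and the difference from the other miRNAs was then -0.032. Members past 2-fold, 0 with quantile normalization in D3/D0, D5/D0, D7/D0 and aged over young skin (2 in D5/D3), numbered 3 with the spike controls and 1 with the authors' values in D3/D0. In D5/D0 they numbered 3 with the probe median, 1 with the offset of 16 and 2 with the authors' values. In D7/D0 they numbered 1 without normalization, 2 with the probe median and 1 with the spike controls. All these were lower in D3/D0 and higher in D5/D0 and D7/D0. In aged over young skin 9 were lower without normalization and 14 lower with the probe median, while 5 were higher with the 75th percentile. The median log2 ratio of all bright miRNAs was then -1.11, -1.26 and 0.64. Shares of all bright miRNAs past 2-fold are not given for these settings, so the counts are no result about the members. At 1.5-fold the counts were 3, 4, 2 and 4 in the order D3/D0, D5/D0, D7/D0 and aged over young. Values of single members moved by more than the SD between repeat spots in 65, 52, 66 and 77 of their alternatives in the same order. They did not in 111, 124, 110 and 99. No paired analysis was possible because there was 1 array for every condition. Signal over background limits the 52 dim members.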
